A study of Homo sapiens with 6 samples.

Results

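SCG2 (secretogranin II), the granins related to it and the genes that process and package peptide hormones were followed in HCT116 cells, an established human colorectal cancer line. The set holds 10 genes of the 20263 in the deposited table: the granins SCG2, VGF, CHGA, CHGB and SCG3, the processing genes PCSK1, PCSK1N, SCG5 and CPE, and the hormone precursor SPX (spexin). They were chosen by their values in CSE against WT, so that difference is described for them and not tested. RNA-seq of poly(A) RNA was done on 3 HCT116 samples treated with CSE and 3 wild type HCT116 samples (WT). CSE is not spelled out in the labels and is read as cigarette smoke extract from the series title, which asks how smoking acts on colorectal cancer. The labels used here give no dose, no exposure time and no solvent for the WT cultures. Both groups are the same single cell line, and nothing in the labels tells whether replicates are separate cultures. A p-value here therefore covers the spread among these 6 libraries alone, which may be technical.

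Endocrine and neuroendocrine cells make peptide hormones as longer precursors and store them in dense-core secretory granules. Granins are acidic proteins that help load and form these granules and are themselves cut into peptides. Prohormone convertases cut precursors at paired basic residues, carboxypeptidase E trims the basic residues left behind, and an amidating enzyme finishes many of the peptides. In the gut this pathway belongs mainly to enteroendocrine cells, a scattered cell type of the epithelium.

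The values are TPM, length-corrected shares of each library's transcripts, so levels can be set beside each other across genes. The sequencing depth of the libraries is unknown. Between 12640 and 12778 genes reached 1 TPM in a library. The first principal component, with 76.9% of the variance, separated the groups, and CSE replicate 3 stood apart from the other CSE libraries on the second (9.26%). The share of TPM on mitochondrially encoded genes was 25.8%, 25.8% and 25.5% in CSE, against 27.0%, 28.6% and 30.2% in WT. Some values with these genes left out are therefore given beside the results, but not for every gene that moves. Epithelial identity was plain in both groups: EPCAM, CDH1, KRT8, KRT18 and KRT19 were all well above 1 TPM, and the 10 colorectal epithelial markers summed to 5312 to 5618 TPM in CSE and 5087 to 5318 TPM in WT. CDX1 was at 0 throughout, and VIL1 and LGALS4 were below 1 TPM.

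SCG2 and VGF were the granins that HCT116 cells expressed, and both were higher in CSE. SCG2 (ENSG00000171951, chromosome 2 from 223596940 to 223602503, minus strand, GRCh38) is the precursor of the peptide secretoneurin. It measured 32.17, 33.86 and 33.67 TPM in the CSE libraries, against 13.43, 13.10 and 12.89 TPM in the WT libraries. Every CSE library was far above every WT library, and the libraries of a group lay close together. The means were 33.2 ± 0.926 TPM in CSE and 13.1 ± 0.272 TPM in WT (SD, n = 3 each), a 2.53-fold difference. On the log2(TPM + 1) scale, CSE minus WT was 1.28 with a standard error of 0.0515, and 1.24 with mitochondrially encoded genes left out. In bulk RNA, a change in the number of cells that express a gene and a change in RNA per cell cannot be told apart. SCG2 ranked 6 among the rises of the 12793 genes that had at least 1 TPM in at least 3 libraries. Its level was above that of 78.1% of the genes in the table in CSE and of 59.8% in WT.

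VGF (ENSG00000128564, chromosome 7 from 101162509 to 101165593, minus strand) encodes a neuronal and endocrine granin that is cut into many small peptides. It measured 81.71, 80.87 and 86.11 TPM in the CSE libraries, against 45.13, 40.06 and 40.32 TPM in the WT libraries. The groups did not overlap, and the WT library nearest to CSE was WT replicate 1. The means were 82.9 ± 2.81 TPM in CSE and 41.8 ± 2.86 TPM in WT (SD, n = 3 each), a 1.98-fold difference, or 0.97 on the log2(TPM + 1) scale with a standard error of 0.0489. VGF ranked 16 among the rises. It was the most abundant of the 10 genes in CSE and stood behind CPE in WT.

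The other granins were nearly silent. CHGA (chromogranin A, ENSG00000100604, chromosome 14 from 92923080 to 92935293, plus strand), the usual serum and tissue marker of neuroendocrine tumours, was listed at 0, 0.11 and 0 TPM in CSE and at 0.24, 0.21 and 0.31 TPM in WT. CHGB (chromogranin B, ENSG00000089199, chromosome 20 from 5911430 to 5925361, plus strand) was listed at 0.03, 0 and 0 TPM in CSE and at 0, 0.03 and 0 TPM in WT. SCG3 (secretogranin III, ENSG00000104112, chromosome 15 from 51681353 to 51721031, plus strand), which tethers chromogranin A to granule membranes, was listed at 0, 0 and 0.03 TPM in CSE and at 0.05, 0 and 0.03 TPM in WT. These 3 granins stayed below 1 TPM in every library, were therefore not among the genes tested, and are given no fold change. The CHGA values of the groups did not overlap but lay close to 0, while those of CHGB and SCG3 overlapped.

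PCSK1, the convertase of the regulated secretory pathway, was nearly absent as well. PCSK1 (prohormone convertase 1/3, ENSG00000175426, chromosome 5 from 96390415 to 96434143, minus strand) was listed at 0 in all 3 CSE libraries, and at 0.03, 0.03 and 0 TPM in the WT libraries. PCSK1N (proSAAS, ENSG00000102109, chromosome X from 48831094 to 48835633, minus strand), a granin-like inhibitor of that convertase, was listed at 0.29, 0.13 and 0.23 TPM in CSE and at 0.21, 0.16 and 0.10 TPM in WT. The PCSK1N values overlapped between groups, and both genes were below 1 TPM throughout. PCSK2, the sister convertase, reached at most 0.05 TPM in CSE and 0.08 TPM in WT. FURIN, the convertase of the constitutive pathway, was expressed, at 74.4 ± 4.88 TPM in CSE and 74.0 ± 2.99 TPM in WT (SD, n = 3 each). PCSK7 measured 11.7 ± 0.172 TPM in CSE and 13.2 ± 0.411 TPM in WT, and PCSK5 measured 3.89 ± 0.255 TPM in CSE and 3.59 ± 0.138 TPM in WT.

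Promoter sequence is shown for the granin and convertase genes that carry the same short element, because they differ in expression in these cells. RefSeq promoter windows (GRCh38.p14, 250 bases before to 50 bases after the start of a gene) matched 8 of the 10 genes, with 2 windows for PCSK1. SCG2 and CHGB had no entry. The cyclic AMP response element is the binding site of CREB, a factor that activates many neuroendocrine genes. Its letters, TGACGTCA, stood in the windows of 3 of the 8 genes, and in 1.85% of all 35116 windows. Each line below runs 5′ to 3′ on the gene's strand, with the element in capitals, and the coordinates are chr7:101165630-101165659 (minus strand) for VGF, chr14:92923085-92923114 (plus strand) for CHGA and chr5:96433307-96433336 (minus strand) for PCSK1.
VGF: tgaatgaacatTGACGTCAatggggcgggg
CHGA: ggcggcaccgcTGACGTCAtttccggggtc
PCSK1: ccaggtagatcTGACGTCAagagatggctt
The element begins 79 bases before the RefSeq start in VGF, 54 in CHGA and 77 in one of the PCSK1 windows. Only VGF of these genes was expressed above 1 TPM, so the letters were present in the windows of genes at very different levels. By the GENCODE gene bounds given above, the VGF element lies upstream of the gene, while those of CHGA and PCSK1 lie within it, the CHGA bases shown overlapping an exon. The bases upstream of VGF (chr7:101165594-101165819, minus strand) show the element, in capitals, close to the start side of the stretch.
VGF upstream: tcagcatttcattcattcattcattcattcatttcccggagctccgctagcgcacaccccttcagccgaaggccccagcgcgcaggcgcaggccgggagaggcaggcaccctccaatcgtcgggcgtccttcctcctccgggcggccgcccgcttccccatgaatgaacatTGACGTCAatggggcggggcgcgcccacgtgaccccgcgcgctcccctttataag

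A second element was searched because it is known from neuroendocrine genes. RE1 is the long binding site of REST, a repressor that keeps neuronal and neuroendocrine genes off in other cells, and 2 of its parts were searched as CAGCACC and GGACAG. Both stood in the window of SCG3, on the same strand and just after its start, shown in capitals (chr15:51681510-51681536, plus strand).
SCG3: cttCAGCACCcacagggcGGACAGcgc
CAGCACC was found in the window of 1 of the 8 genes and in 7.75% of all windows. GGACAG was found in 3 of the 8 and in 20.5% of all windows. The core of the xenobiotic response element, GCGTG, to which the aryl hydrocarbon receptor binds, was found in 6 of the 8 and in 36.5% of all windows. The antioxidant response core, TGACNNNGC, was found only in VGF among the 8 and in 13.3% of all windows. The AP-1 site, TGANTCA, was found only in PCSK1N among the 8 and in 7.71% of all windows. The TATA box, TATAAA, was found in VGF and PCSK1 and in 11.5% of all windows. Both strands were searched. The windows of SPX and SCG5 held none of these letters. The windows of SPX (21527702 to 21528001) and CPE (165378758 to 165379057) lie wholly within the GENCODE bounds of these genes, as do those of PCSK1. Bases upstream of the bounds of these genes were not searched. The TATA box match of VGF lies on the opposite strand, and no match shares bases with another. A match is a description of letters and not a bound site.

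**Figure D1:**
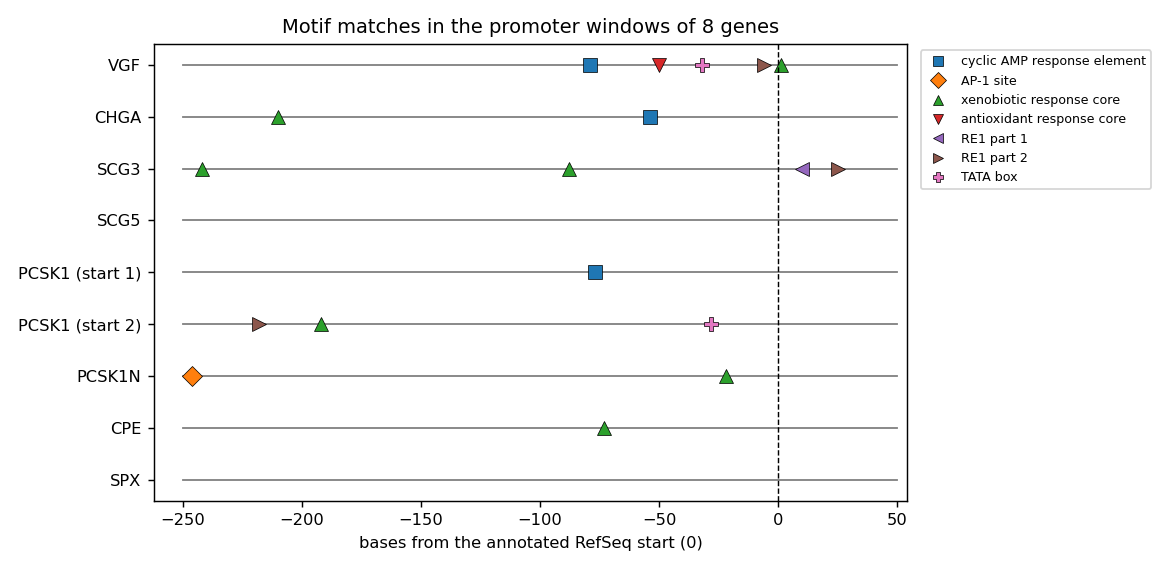
Positions of the searched letters in the RefSeq promoter windows of 8 of the genes, as distance in bases from the annotated start, from 250 before to 50 after. The cyclic AMP response element appears in the VGF, CHGA and PCSK1 windows, and SPX and SCG5 show no match.

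SCG5 (secretogranin V or 7B2, ENSG00000166922, chromosome 15 from 32641676 to 32697098, plus strand) is the chaperone of the PCSK2 protein. It measured 3.07, 3.43 and 2.71 TPM in CSE, against 1.93, 2.62 and 2.53 TPM in WT. The groups were narrowly apart, with the lowest CSE library at 2.71 TPM and the highest WT library at 2.62 TPM. The means were 3.07 ± 0.36 TPM in CSE and 2.36 ± 0.375 TPM in WT (SD, n = 3 each), a difference of 0.28 on the log2(TPM + 1) scale with a standard error of 0.0979. Without WT replicate 1 the difference was 0.18. An antisense gene, AC123768.1, overlaps exons of SCG5 and has no line in the table. The labels used here do not say whether the libraries keep strand, so reads of the pair cannot be told apart.

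CPE (carboxypeptidase E, ENSG00000109472, chromosome 4 from 165361194 to 165498320, plus strand) was strongly expressed and was lower in CSE. It measured 55.00, 55.55 and 52.75 TPM in CSE, against 66.65, 67.03 and 64.59 TPM in WT. All CSE libraries were below all WT libraries. The means were 54.4 ± 1.48 TPM in CSE and 66.1 ± 1.31 TPM in WT (SD, n = 3 each), so that WT was 1.21-fold higher. The log2(TPM + 1) difference was -0.28 with a standard error of 0.0429, and -0.33 with mitochondrially encoded genes left out.

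SPX (ENSG00000134548, chromosome 12 from 21526307 to 21541249, plus strand) encodes the precursor of spexin, a small peptide related to galanin. It measured 1.17, 1.25 and 1.55 TPM in CSE, against 4.84, 4.99 and 5.68 TPM in WT. The groups were far apart, and the highest library of each group was its replicate 3. The means were 1.32 ± 0.200 TPM in CSE and 5.17 ± 0.448 TPM in WT (SD, n = 3 each), so that WT was 3.91-fold higher. The log2(TPM + 1) difference was -1.41 with a standard error of 0.0913, which ranked 8 among the falls. At these low levels the added 1 shrinks the difference, and with 0.1 in its place it was -1.89. With mitochondrially encoded genes left out and 1 added, it was -1.57. SPX overlaps exons of GYS2, the liver glycogen synthase gene on the opposite strand, and of AC010197.2, which has no line in the table. GYS2 was low in both groups, at 0.37, 0.51 and 0.46 TPM in CSE and 0.32, 0.37 and 0.49 TPM in WT.

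**Figure D2:**
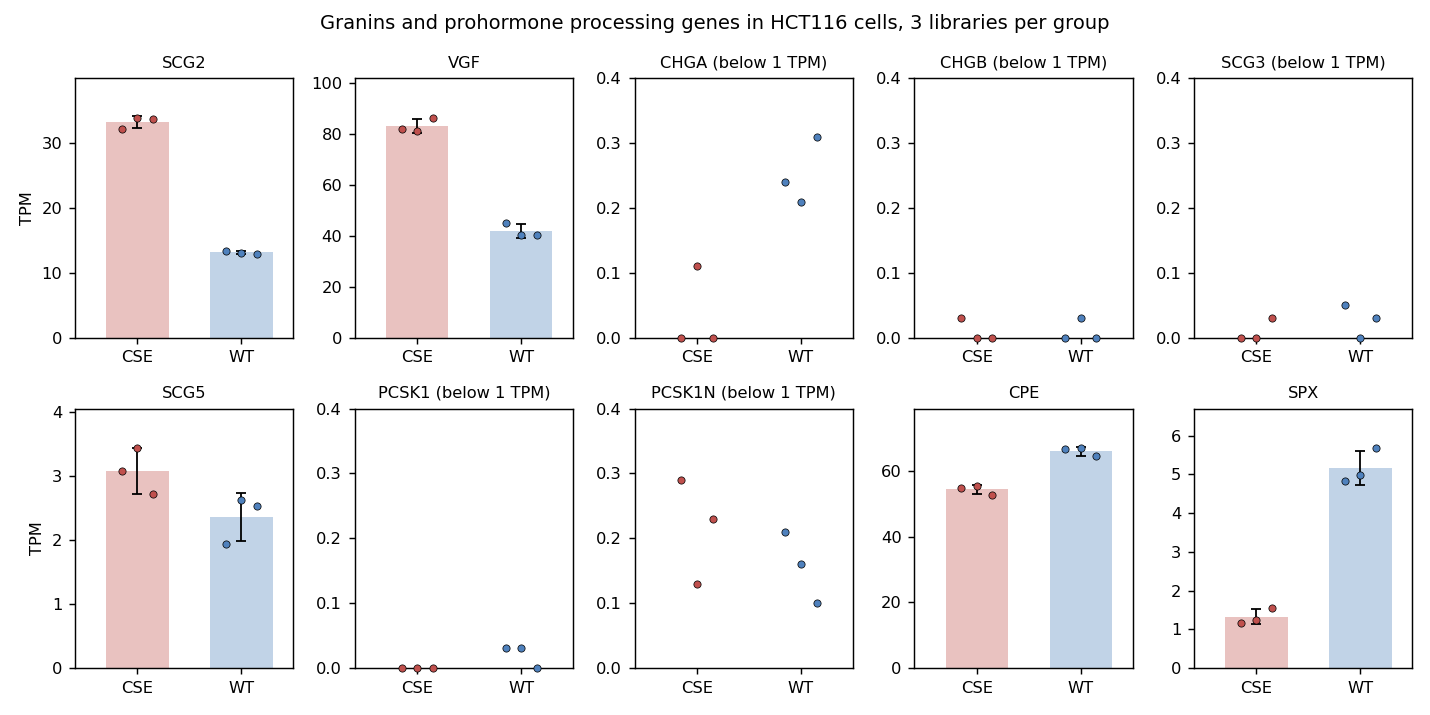
TPM of the 10 genes in 3 CSE and 3 WT libraries of HCT116 cells. Points are libraries, and bars with whiskers are means ± SD (n = 3), drawn for the 5 genes above 1 TPM in all 6 libraries; the others share an axis that ends at 0.4 TPM. SCG2 and VGF are higher in CSE, CPE and SPX are lower, SCG5 differs by little, and CHGA, CHGB, SCG3, PCSK1 and PCSK1N stay below 1 TPM.

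Expression thus split the set cleanly at 1 TPM. Of the 10 genes, 5 were at or above 1 TPM in all 6 libraries and 5 were below it in all 6, and none changed side between groups. Without CSE replicate 3, the library that stood apart, the log2(TPM + 1) difference was 1.27 for SCG2, 0.94 for VGF, 0.34 for SCG5, -0.25 for CPE and -1.48 for SPX. The value nearest above the limit was SPX in CSE replicate 1 at 1.17 TPM, and the value nearest below was CHGA in WT replicate 3 at 0.31 TPM. Among the 5 expressed genes, 3 were higher in CSE and 2 lower, and none of them overlapped between groups. Over all 12793 genes tested, 57.4% did not overlap between groups, and limma called 50.1% (Benjamini-Hochberg adjusted p below 0.05), 24.5% higher and 25.6% lower. As these genes were selected on this contrast, nothing is read from their count against that background.

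The make-up of the expressed set shifted. The 10 genes summed to 173.4, 175.2 and 177.1 TPM in CSE, against 132.5, 128.2 and 126.5 TPM in WT. SCG2 made up 18.5%, 19.3% and 19.0% of that sum in CSE, against 10.1%, 10.2% and 10.2% in WT. VGF made up 47.1%, 46.2% and 48.6% in CSE, against 34.1%, 31.2% and 31.9% in WT. Both granins thus held a larger share of the sum in each CSE library. CPE made up 31.7%, 31.7% and 29.8% in CSE, against 50.3%, 52.3% and 51.1% in WT. The order of levels in CSE was VGF, CPE, SCG2, SCG5, SPX, and in WT it was CPE, VGF, SCG2, SPX, SCG5. Neighbours in these orders were separated by more than their SD in both groups. Relative to CPE, SCG2 stood at 58.5%, 61.0% and 63.8% in CSE, against 20.2%, 19.5% and 20.0% in WT. These ratios within a library do not move with the mitochondrial share. As the genes were selected on this contrast, the shares, orders and ratios restate their differences and are not a separate result.

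The genes around SCG2 and SPX were not selected on the contrast, so the sizes of their differences cannot be set against those of SCG2 and SPX. SCG2 lies in a gene-poor stretch, with KCNE4 398541 bases before it, a barely detected potassium channel subunit with means of 0.080 TPM in CSE and 0.113 TPM in WT. On the other side, 149183 bases away on the same strand, AP1S3, an adaptor subunit of clathrin coats, measured 72.0 ± 2.51 TPM in CSE and 64.2 ± 1.30 TPM in WT (SD, n = 3 each; log2 difference 0.16, adjusted p from limma = 0.003315). Beside SPX, GOLT1B, a Golgi transport gene 7899 bases before it on the same strand, measured 39.4 ± 0.955 TPM in CSE and 48.1 ± 0.959 TPM in WT (log2 difference -0.28, adjusted p from limma = 2.025e-05). LDHB, the heart-type lactate dehydrogenase subunit 94093 bases after SPX, was higher in CSE, at 1131 ± 53.6 TPM against 849 ± 12.6 TPM in WT (log2 difference 0.41, adjusted p from limma = 1.693e-08).

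The enzymes that act on the same precursors were set beside CPE with a list of 16, of which 13 were tested. Of these, 3 rose, 4 fell and 6 did not pass, so that 53.8% were called, against 50.1% of all genes. The median log2 difference of the 13 was -0.07, against -0.0039 over all genes tested. With mitochondrially encoded genes left out, 2 were higher and 6 lower. PAM, the enzyme that amidates peptide ends, rose to 129.51, 130.33 and 123.60 TPM in CSE, against 99.28, 98.57 and 93.70 TPM in WT (log2 difference 0.39, SE 0.0409, adjusted p from limma = 7.863e-08). It moved against CPE, and the ratio of PAM to CPE was 2.35, 2.35 and 2.34 in CSE, against 1.49, 1.47 and 1.45 in WT. CPM, a carboxypeptidase of the cell surface, fell to 3.97, 4.05 and 3.82 TPM in CSE, against 5.71, 5.57 and 5.37 TPM in WT (log2 difference -0.41, adjusted p from limma = 0.0001035). CTSB, a lysosomal protease, fell to 213.45, 212.74 and 204.05 TPM in CSE, against 262.49, 257.59 and 254.69 TPM in WT (log2 difference -0.30, adjusted p from limma = 1.03e-06). None of these 3 enzymes, which were named for their large differences, overlapped between groups, and neither did 57.4% of all genes tested.

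The genes that build, dock and release granules differed in both directions. Of 46 listed, 35 were tested, and 11 rose, 9 fell and 15 did not pass, with a median log2 difference of 0.05. That is 57.1% called, against 50.1% of all genes. The balance depended on the scaling, with 9 higher and 14 lower once mitochondrially encoded genes were left out. SYP (synaptophysin), a vesicle membrane protein used as a neuroendocrine marker, rose to 2.28, 2.32 and 2.63 TPM in CSE, against 1.56, 1.60 and 1.39 TPM in WT (log2 difference 0.44, SE 0.0928, adjusted p from limma = 0.0005019). SYTL1 and SYTL2, which tether vesicles through RAB27, rose by 0.44 and 0.41 on the log2 scale (adjusted p from limma = 1.07e-07 for SYTL1 and 1.036e-05 for SYTL2). SYTL1 averaged 73.7 ± 2.58 TPM in CSE and 54.2 ± 2.86 TPM in WT, and SYTL2 averaged 16.5 ± 1.11 TPM in CSE and 12.2 ± 0.484 TPM in WT (SD, n = 3 each). Of the 46, 11 were below 1 TPM in every library, and 2 of them, CADPS and SLC18A1, were listed at 0 in all 6. Others of the list were well expressed. SYT1 averaged 55.8 TPM in CSE and 45.2 TPM in WT, and STX1A averaged 51.9 TPM in CSE and 57.4 TPM in WT. By mean TPM, SYP was 1.59-fold higher in CSE, a difference that the added 1 shrinks. On the log2(TPM + 1) scale, all 48 tested genes of the enzyme and granule lists differed by less than 1.5-fold, from -0.41 to 0.44. SCG2, VGF and SPX lay outside that range, but they were selected on this difference and the listed genes were not.

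**Figure D3:**
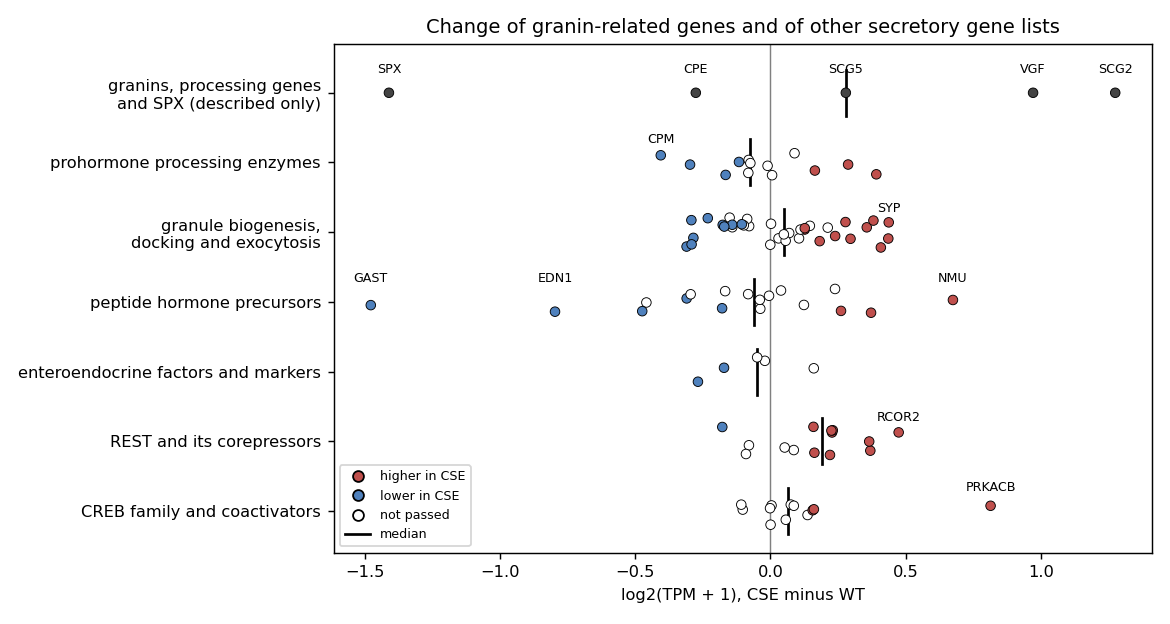
Difference between CSE and WT on the log2(TPM + 1) scale for each tested gene, by list. Red points rose, blue points fell (limma, adjusted p below 0.05), white points did not pass, dark points are the genes chosen on this contrast, and black lines are medians. The enzyme and granule lists stay between -0.41 and 0.44, while SCG2 (1.28), VGF (0.97) and SPX (-1.41) lie outside.

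Peptide hormone precursors other than SPX were mostly silent. Of 52 listed, 33 were below 1 TPM in every library, and 11 of them, GCG (proglucagon) and SST (somatostatin) included, were listed at 0 in all 6. Of the 18 tested, 3 rose, 5 fell and 10 did not pass, so that 44.4% were called, against 50.1% of all genes. Their median log2 difference was -0.06. With mitochondrially encoded genes left out, 3 were higher and 6 lower. GAST (gastrin), a stomach hormone, was the single tested gene of all the lists that fell by more than SPX, which was selected on this difference. It measured 0.50, 0.48 and 0.90 TPM in CSE, against 3.52, 3.53 and 3.44 TPM in WT (log2 difference -1.48, SE 0.104, adjusted p from limma = 2.23e-10), and it was tested because of its WT level alone. EDN1 (endothelin 1), a vasoconstrictor peptide, fell to 2.17, 1.92 and 2.14 TPM in CSE, against 4.23, 4.13 and 4.67 TPM in WT (log2 difference -0.80, adjusted p from limma = 9.555e-08).

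NMU (neuromedin U), a peptide of gut and brain, rose to 89.13, 89.68 and 99.87 TPM in CSE, against 61.47, 59.78 and 52.35 TPM in WT (log2 difference 0.67, adjusted p from limma = 1.881e-09). Precursors thus differed in both directions. The groups did not overlap for these 3 genes, which were named for their large differences, nor for 57.4% of all genes tested. GAL (galanin), the relative of spexin, was named after its values were seen. It measured 107.82, 100.49 and 107.28 TPM in CSE, against 130.40, 116.85 and 110.88 TPM in WT (log2 difference -0.18, adjusted p from limma = 0.005237), and without WT replicate 1 the log2 difference was -0.11 and the adjusted p was 0.05292. The listed receptors of spexin or galanin were below 1 TPM in every library. GALR1 was listed at 0, GALR2 at 0.48, 0.11 and 0.26 TPM in CSE and 0.19, 0.42 and 0.15 TPM in WT, and GALR3 at 0.13, 0.59 and 0.62 TPM in CSE and 0.53, 0.60 and 0.62 TPM in WT.

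**Figure D4:**
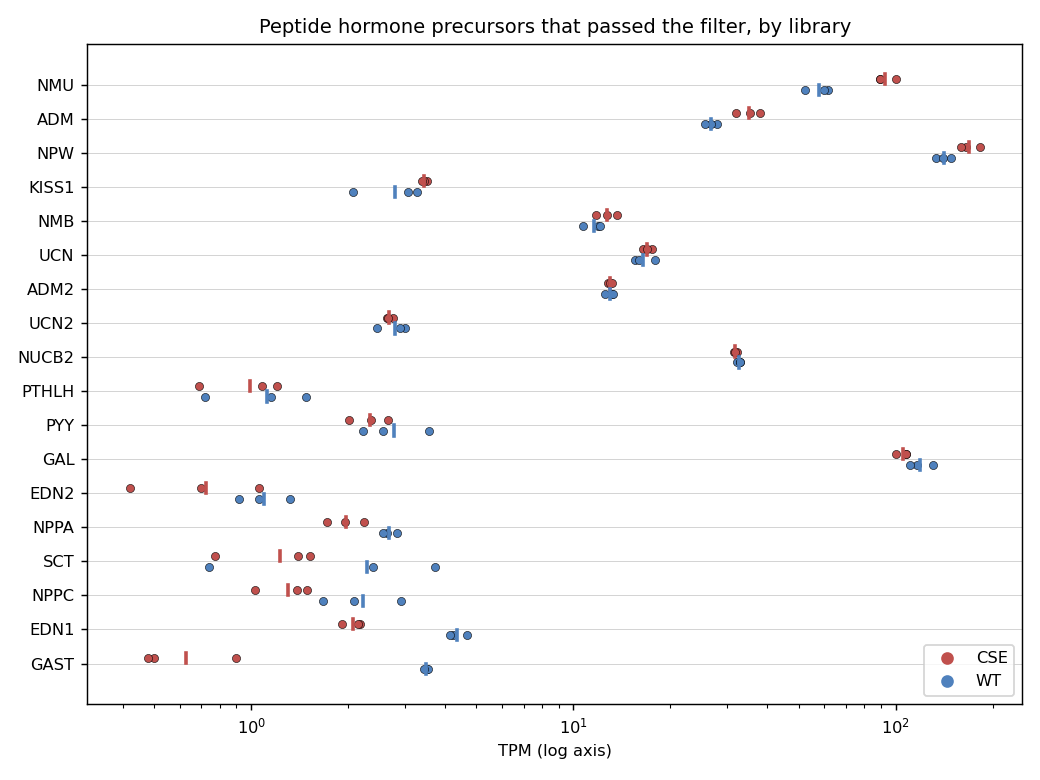
TPM, on a log axis, of the 18 tested peptide hormone precursors in each of 3 CSE and 3 WT libraries. Points are libraries, vertical marks are group means, and genes run from the largest rise at the top to the largest fall at the bottom. The CSE points of NMU lie above its WT points, and those of GAST and EDN1 lie below.

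Enteroendocrine identity was not apparent in either group. Of 16 factors and markers, 11 were below 1 TPM in every library, and INSM1, NKX2-2 and ST18 were listed at 0 in all 6. The endocrine fate factors NEUROG3 and NEUROD1 reached at most 0.05 and 0.08 TPM in CSE and 0.05 and 0.11 TPM in WT. Of the 5 tested, 0 rose, 2 fell and 3 did not pass, with a median log2 difference of -0.05. This is 40% called, against 50.1% of all genes. MYT1, a zinc finger factor, measured 6.20, 6.34 and 5.60 TPM in CSE, against 7.03, 6.80 and 6.95 TPM in WT (log2 difference -0.17, adjusted p from limma = 0.04649). The groups did not overlap, and the call stood just inside the threshold. It was lost in 6 alternatives, with adjusted p up to 0.1143 in the fit without WT replicate 1. Without CSE replicate 1, CSE replicate 3, WT replicate 1 or WT replicate 3, 0 genes of the list were called.

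REST and the corepressors it recruits were all expressed. Of 14 listed and tested, 9 rose, 1 fell (CTDSPL) and 4 did not pass, with a median log2 difference of 0.19, and 71.4% were called, against 50.1% of all genes. With mitochondrially encoded genes left out, 8 were higher and 3 lower. RCOR2, a scaffold of the corepressor complex, rose to 15.73, 16.93 and 16.52 TPM in CSE, against 11.55, 11.17 and 11.83 TPM in WT (log2 difference 0.47, adjusted p from limma = 6.408e-07). HDAC1, a histone deacetylase of many complexes, averaged 295.4 ± 1.12 TPM in CSE and 228.4 ± 2.86 TPM in WT (SD, n = 3 each; log2 difference 0.37, adjusted p from limma = 2.688e-08). CTDSP1, a small phosphatase that acts with REST, averaged 50.5 ± 1.26 TPM in CSE and 39.0 ± 1.04 TPM in WT (log2 difference 0.37, adjusted p from limma = 8.053e-07). REST itself, named after its values were seen, measured 25.05, 26.73 and 23.47 TPM in CSE, against 22.21, 23.17 and 21.62 TPM in WT. That difference was 0.16 (adjusted p from limma = 0.01994), and the call was lost in 5 alternatives. By limma the adjusted p was 0.1332 without CSE replicate 2 and 0.1133 with mitochondrially encoded genes left out.

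The CREB family, its coactivators and the listed subunits of the cyclic AMP-dependent kinase were all expressed too. Of 12 listed and tested, 3 rose, 0 fell and 9 did not pass, with a median log2 difference of 0.07. This is 25% called, against 50.1% of all genes. PRKACB, a catalytic subunit of the cyclic AMP-dependent kinase that activates CREB, rose to 48.56, 49.24 and 45.16 TPM in CSE, against 26.68, 26.99 and 26.29 TPM in WT (log2 difference 0.81, SE 0.048, adjusted p from limma = 1.222e-11). The groups were far apart for this gene. The regulatory subunits PRKAR2B and PRKAR1A each rose by 0.16 on the log2 scale (adjusted p from limma = 0.0118 for PRKAR2B and 0.002086 for PRKAR1A), and the PRKAR2B call was lost without CSE replicate 2 (0.05586), without WT replicate 2 (0.06656) and with mitochondrially encoded genes left out (0.06106). In that last setting 2 genes of the list were higher and 2 lower. Without CSE replicate 3, 6 genes of the list were called. CREB1, named after its values were seen, measured 13.8 ± 0.677 TPM in CSE and 13.0 ± 0.748 TPM in WT and did not pass (log2 difference 0.08, adjusted p from limma = 0.3169).

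Over the 7 secretory and regulatory lists together, 159 genes were listed and 97 tested. Of these, 29 rose and 21 fell, or 51.5%, which is near the 50.1% called among all genes, and their median log2 difference was 0.0064. With mitochondrially encoded genes left out, the split was 24 higher and 33 lower. No listed gene rose by as much as SCG2 or VGF, but these 2 were selected on this difference and the listed genes were not. The lists were drawn up with earlier results of these data known. Markers of other cell types were low: 5 of 6 fibroblast, 4 of 6 leukocyte and all 5 endothelial markers were below 1 TPM in every library, with DCN listed at 0. COL1A1 made up nearly all of the fibroblast sum, which was 38.04 to 38.66 TPM in CSE and 43.9 to 46.0 TPM in WT. CD68, a lysosomal protein, made up most of the leukocyte sum, which was 12.9 to 13.8 TPM in CSE and 19.2 to 19.6 TPM in WT. The endothelial sum was 1.44 to 1.61 TPM in CSE and 0.80 to 1.46 TPM in WT, and the part of these markers in the results was not tested.

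Genes with a pattern most like that of SCG2 and SPX were found by the root mean square difference of log2(TPM + 1) over the 6 libraries, each gene centred on its own mean. For SCG2 these were RNF43 (0.0670), HMMR (0.0844), TNS2 (0.126), ABCG2 (0.131) and WNT16 (0.132). RNF43, which clears Wnt receptors from the cell surface, measured 22.56, 23.80 and 20.63 TPM in CSE and 8.70, 8.47 and 8.03 TPM in WT. ABCG2, a drug efflux pump, measured 7.52, 8.07 and 7.44 TPM in CSE and 2.83, 3.43 and 3.18 TPM in WT. HMMR is a hyaluronan-binding spindle protein, TNS2 a focal adhesion protein and WNT16 a secreted Wnt ligand. None of the 5 is a granule gene of the lists, but nothing is read from this. SCG2 was selected for its difference, and no tested enzyme or granule gene rose by more than 0.44 on the log2 scale.

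For SPX the most alike were KRTAP5-1 (0.0824), GAST (0.0922), KLK5 (0.112), KRT7 (0.119) and JUN (0.119). KRT7, a keratin of simple epithelia, measured 136.61, 134.19 and 142.71 TPM in CSE and 339.01, 326.92 and 324.45 TPM in WT. JUN, a subunit of the AP-1 factor, measured 46.84, 47.14 and 46.04 TPM in CSE and 129.82, 124.61 and 120.46 TPM in WT. KLK5 is a secreted serine protease and KRTAP5-1 a keratin-associated protein. With 3 libraries per group, likeness mostly measures an equal difference between groups, and GAST is the 1 hormone precursor among these 10 genes.

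**Figure D5:**
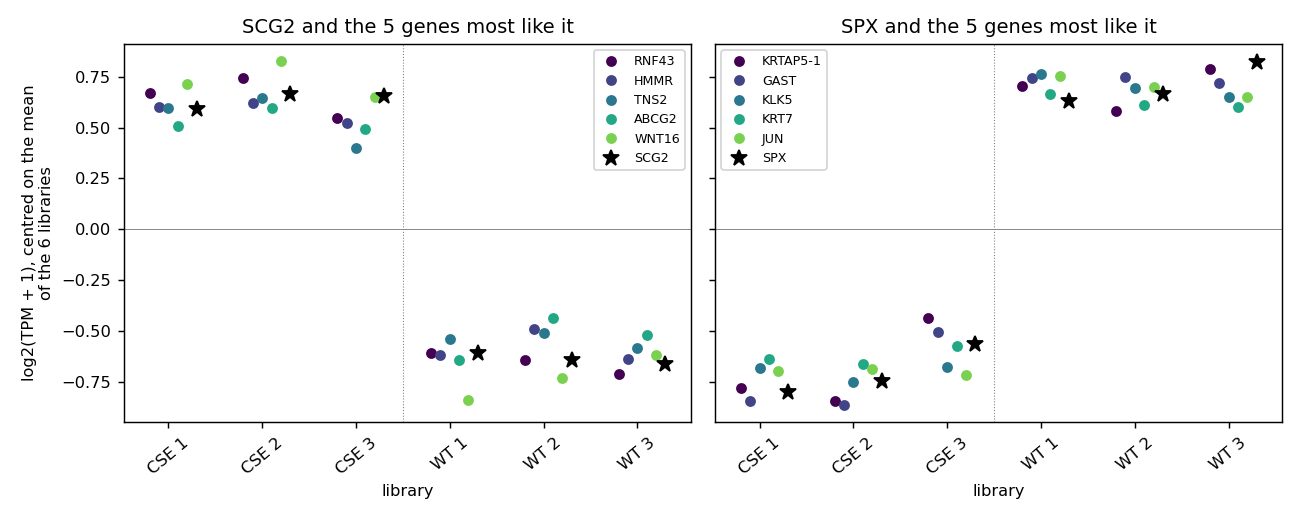
SCG2 (left) and SPX (right) with the 5 genes of the most similar pattern, as log2(TPM + 1) centred on each gene's mean over the 6 libraries, by library. Stars are SCG2 and SPX, and every gene lies on one side of 0 in all CSE libraries and on the other in all WT libraries.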

How the data were processed

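The authors deposited 1 table, of TPM for 20263 genes in 6 libraries, and each sample column matched a label. Per the submitters' processing notes, FastQC 0.11.2, Trimmomatic 0.36, HISAT2 2.0, bedtools 2.26.0 and GRCh38 were used, in no stated order. The strandedness, annotation and counting program were not given in the sources used here, and depth is unknown. Per the labels' protocols, Trizol RNA freed of DNA went into an mRNA library kit.

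Genes with at least 1 TPM in at least 3 libraries (12793) were compared on log2(TPM + 1), which understates changes of low genes, with limma 3.58.1 in R 4.3.3 (mean-variance trend, no covariate, Benjamini-Hochberg adjustment at 0.05). The procedure was also run on simulated data with independent noise for each gene and library, and so with no shift shared within a library. No result here rests on that run. The 10 genes and the lists were chosen with earlier results of these data known. Named list genes are the 3 called with the largest difference, and any other list gene was named after its values were seen. Some genes that this rule takes are not reported here. As alternatives, a pseudocount of 0.1, a mean of at least 5 TPM, no filter, median-of-ratios scaling, quantile normalization, removal of the 13 mitochondrially encoded genes with rescaling, a replicate block and the omission of each library were run. Symbols were found for 19837 IDs. Positions come from GENCODE 29 and promoter windows from RefSeq (GRCh38.p14).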

Additional observations from a re-analysis of the deposited data

How the results depend on the processing

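SCG2 was higher and SPX lower in CSE in every setting that gave a value, and SPX had none where a mean of at least 5 TPM was required. The SCG2 difference was 1.33 with a pseudocount of 0.1 and 1.24 with mitochondrially encoded genes left out, and the SPX difference was -1.89 and -1.57 in these settings. Leaving out 1 library at a time gave 1.26 to 1.30 for SCG2 and -1.48 to -1.35 for SPX, and 5463 to 6573 genes called. Listed secretory genes called lower numbered 33 with mitochondrially encoded genes left out, 13 at a mean of at least 5 TPM and 13 with no filter. At a mean of at least 5 TPM fewer genes are tested, and otherwise the cause was not tested. Over all genes, 48.9% of calls were higher, and 34.3% with mitochondrially encoded genes left out. The median of all genes then moved to -0.0584.

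Enteroendocrine genes called fell to 0 or 1 in 10 settings, precursors called to 4 at a mean of at least 5 TPM, and processing enzymes called to 4 without CSE replicate 1. Of 21 called genes given with an adjusted p, 17 kept their call in every setting that gave a value. CPM, EDN1, GAST and SYP had no value at a mean of at least 5 TPM. The other 4 (MYT1, REST, PRKAR2B, GAL) lost the call in some settings, and 0 reversed. GAL had an adjusted p of 0.1475 by limma with no filter. Called genes named without an adjusted p, such as PCSK7, were not followed across settings. Same-numbered samples were not paired by the labels, and their deviations correlated at -0.0711, 0.015 and -0.0883. With the replicate block 6537 genes were called, 49 of them listed, and 1 enteroendocrine gene was called in place of 2.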
